A study of Mus musculus with 8 samples.

Results

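MiR-709 (mmu-miR-709 on the arrays) is 1 of the 1881 mouse microRNAs (miRNAs) measured on the arrays, and it was singled out because its serum signal was high and was higher after irradiation than without it. Its rows were taken by name from all 8 arrays, and the values that chose it were its total and spot signals at 7 Gy against 0 Gy and its rank on each array, so that these are given here as a description without a test. The study asked which serum miRNAs change after a lethal dose of X-rays. Sera of male C57BL/6NJcl mice that were 8 weeks old were compared, 4 from non-irradiated mice (0 Gy) and 4 from mice given 7 Gy of X-rays to the whole body, which the study collected 72 h later. No other treatment and no altered gene is given for either group. MiRNAs in 30 ng of serum RNA per sample were labelled with Cy3 and hybridised to 1-colour Agilent arrays on 1 slide. The labels number the replicates but do not say whether a serum came from 1 mouse or from several, so that p-values measure the spread between these samples.

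MiRNAs are short RNAs that guide Argonaute proteins to partly complementary sites in messenger RNAs, chiefly through the bases of the seed near the 5′ end, and thereby lower the output of these messengers. They are found in serum inside vesicles, bound to proteins or released from broken cells, so that the serum holds miRNAs from many tissues and from blood cells. MiR-709 is a mouse miRNA that is known for a role in the nucleus, where it binds the primary transcript of miR-15a/16-1 and holds back its processing. In the RefSeq table of GRCm38.p6 the Mir709 gene lies at chr8:84086099-84086186, a stretch of 88 bases within the span of Rfx1 (chr8:84063564-84097001), a gene for a transcription factor of the regulatory factor X family. The table gives neither exons nor introns.

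The mature sequences of the miRNAs that moved most and least like miR-709 over the 8 arrays are shown to let their composition be compared, with the seed (bases 2 to 8) in capitals. They are RefSeq entries of GRCm38.p6, written 5′ to 3′, and miR-709 and miR-5107-5p are named only. The 4 miRNAs most like miR-709 with an entry had 4 different seeds.
miR-3473e: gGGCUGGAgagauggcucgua
miR-1892: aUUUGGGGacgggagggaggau
miR-3072-5p: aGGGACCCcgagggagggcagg
miR-6965-5p: aGAGGGAGgcuauugggcaggaga
They are encoded at chr5:31667296-31667316 on the minus strand (miR-3473e), chr12:54645943-54645964 on the minus strand (miR-1892), chr12:109747893-109747914 on the plus strand (miR-3072-5p) and chr17:24240919-24240942 on the minus strand (miR-6965-5p).

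Among the 5 least like it, miR-92a-3p and miR-25-3p shared the seed AUUGCAC, and the others had seeds of their own.
miR-92a-3p: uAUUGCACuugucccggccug
miR-25-3p: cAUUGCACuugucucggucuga
miR-29a-3p: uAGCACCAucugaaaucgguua
miR-140-3p: uACCACAGgguagaaccacgg
miR-130b-3p: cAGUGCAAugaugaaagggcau

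The arrays differed in ways that touch every value below. Labelling spike-in signals, RNAs added before labelling, were 2.73 to 3.68 (log10) on the 0 Gy arrays and 1.95 to 3.35 at 7 Gy, where replicates 1, 3 and 4 fell outside the range the software accepts. Hybridization spike-ins were in range on all 8 arrays but tended to be lower at 7 Gy. They were 4.34 to 4.51 (log10) at 0 Gy against 4.27, 4.43, 3.88 and 4.08 on 7 Gy replicates 1 to 4. Between 531 and 603 miRNAs were detected at 0 Gy and between 378 and 687 at 7 Gy. The summed signal of the 4 red cell miRNAs miR-451a, miR-486a-5p, miR-144-3p and miR-16-5p was 16446 to 80867 scaled units at 0 Gy against 7322 to 25821 at 7 Gy. The 4 did not move alike. MiR-451a was 83.5, 14871, 32.9 and 10.6 on 7 Gy replicates 1 to 4, a log2 difference between doses of −5.34 (SE 1.94). For miR-486a-5p the log2 difference was −0.46 (SE 0.84). MiR-144-3p and miR-16-5p were detected at 7 Gy on replicate 2 only. The 4 markers of pancreatic acinar cells summed to 10.7 to 154 at 0 Gy against 0.302 to 76.3 at 7 Gy, and miR-216b-5p and miR-217-5p were detected on no array. MiR-216a-5p was detected on 7 Gy replicate 2 only, so that miR-148a-3p was the only marker detected at 0 Gy. On 7 Gy replicates 1, 3 and 4 none of the 4 was detected. The sums of these arrays hold only the entry for a miRNA that is not detected and are not measured amounts. The 2 markers of pancreatic islets summed to 128 to 145 at 0 Gy against 125.96 to 471 at 7 Gy. Every array detected miR-375-3p, but miR-7a-5p was often missing. At 7 Gy only replicate 2 detected miR-7a-5p, and at 0 Gy replicates 3 and 4 did not. Where miR-7a-5p was missing, the islet sum is that of miR-375-3p alone, apart from the entry for a miRNA that is not detected. The part of red cells and pancreatic cells in the values of miR-709 was not tested. The 0 Gy samples occupied slide columns 1 and 2 and the 7 Gy samples columns 3 and 4, so that column and dose cannot be told apart. Less of a miRNA in serum and less serum RNA labelled cannot be told apart in these values either.

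Before any scaling, the signal of miR-709 did not separate the groups. The total signal, which is the background-subtracted signal over all its spots, was 3643, 3607, 1785 and 1732 on the 0 Gy arrays, replicates 1 to 4. At 7 Gy it was 825, 7947, 1370 and 10293. Replicates 2 and 4 at 7 Gy were thus above every 0 Gy array, and replicates 1 and 3 were below every one. The highest value was 12.5 times the lowest at 7 Gy and 2.10 times at 0 Gy.

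The software set the spot size from the image on 6 arrays and used a default size on the other 2, 7 Gy replicates 1 and 3. On these 2 arrays the total signal of each miR-709 probe was 0.212 times the mean signal of its spots, against 0.278 to 0.282 times on the others. The unscaled difference between the groups was 0.30 (SE 0.89) on the log2 scale from the total signals and 0.52 (SE 0.76) from the spot signals.

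After each array was scaled to its 90th percentile over all 1881 miRNAs, the groups no longer overlapped for miR-709. The scaled signal was 1420, 1629, 1900 and 1610 at 0 Gy (mean 1640 ± 197, SD, n = 4). At 7 Gy it was 3573, 3009, 6343 and 7778 (mean 5176 ± 2265, SD, n = 4). The lowest 7 Gy array was 1.58 times the highest 0 Gy array. On the log2 scale the means were 10.67 ± 0.172 and 12.23 ± 0.654, a difference of 1.56 (SE 0.32 from the limma fit across all tested miRNAs), or 2.94-fold. The 7 Gy arrays spread more than the 0 Gy arrays on this scale.

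The separation came with very different scaling factors. The 0 Gy arrays were multiplied by 0.390, 0.452, 1.06 and 0.929 and the 7 Gy arrays by 4.33, 0.379, 4.63 and 0.756, so that the signals of 7 Gy replicates 1 and 3 were raised more than 4-fold. The 7 Gy array with labelling spike-ins in range, replicate 2, was scaled down and had the lowest scaled miR-709 signal of its group, still above all 0 Gy arrays. How much of the difference goes with labelling was not tested beyond the fits given in the closing section, in which the difference was 0.91 with the labelling signal as a covariate and 0.88 without the 3 arrays out of range.

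**Figure D1:**
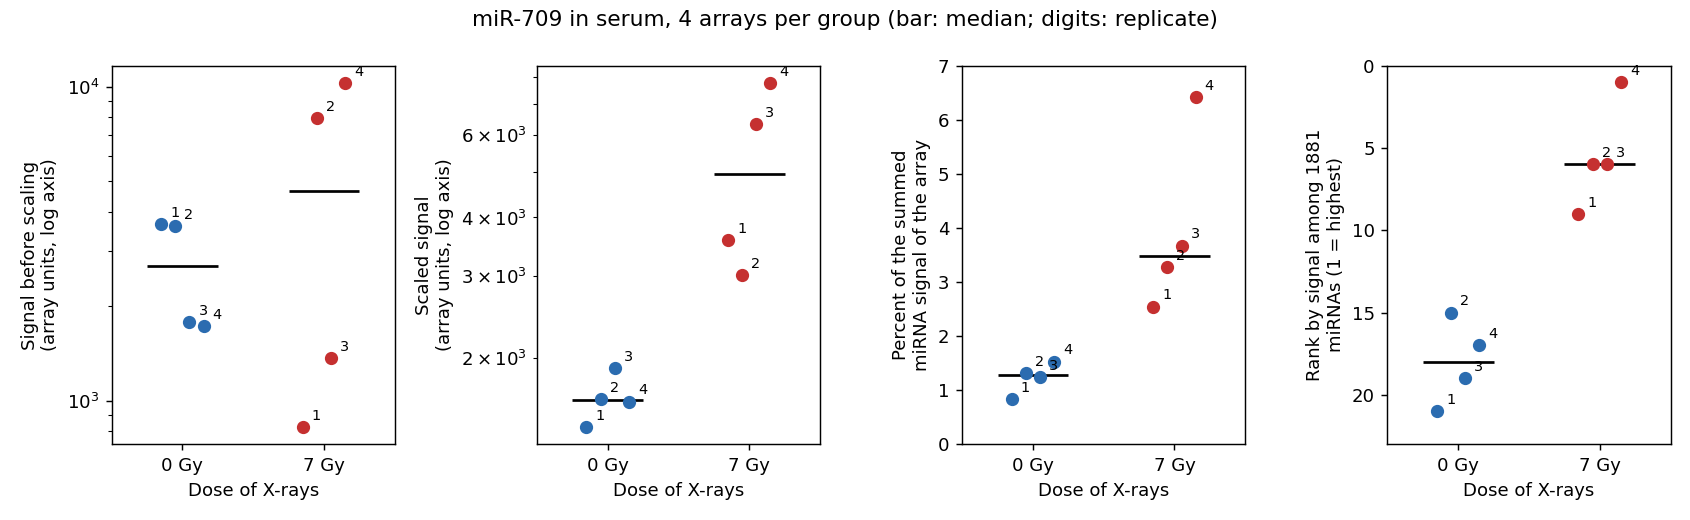
MiR-709 on the 4 arrays of each dose (points, numbered by replicate, with the group median as a bar): signal before scaling and scaled signal in array units on log axes, percent of the summed miRNA signal, and rank by signal. The groups overlap before scaling (1732 to 3643 and 825 to 10293) and do not overlap in the other panels.

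The rank within an array needs no scaling. MiR-709 was at position 21, 15, 19 and 17 of the 1881 miRNAs at 0 Gy against at 9, 6, 6 and 1 at 7 Gy, with medians of 18 and 6. On 7 Gy replicate 4 it had the highest signal of all miRNAs. Ranked by mean spot signal, the positions were 20, 15, 19 and 17 at 0 Gy and the same as before at 7 Gy. A rank compares array signals of different probes, whose binding differs, and not numbers of molecules.

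MiR-709 likewise took a larger part of the signal of each irradiated serum. It made up 0.837, 1.31, 1.24 and 1.53% of the summed miRNA signal at 0 Gy (1.23 ± 0.289%, SD, n = 4). At 7 Gy it made up 2.55, 3.27, 3.67 and 6.42% (3.98 ± 1.69%, SD, n = 4). The red cell miRNA miR-451a alone dominated some arrays, and with it left out of the sum the shares were 1.26 to 1.91% at 0 Gy against 2.55 to 6.42% at 7 Gy, still without overlap. Relative to the miRNA with the highest signal of the array, miR-709 reached 2.11, 4.17, 5.50 and 12.6% at 0 Gy against 27.9, 20.2, 24.6 and 100% at 7 Gy.

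The miRNAs that had stood above miR-709 moved in both directions. There were 28 miRNAs above miR-709 on at least 1 of the 0 Gy arrays and 10 on at least 1 of the 7 Gy arrays, and none was above it on all 4 arrays at 7 Gy. The 18 miRNAs that were above it at 0 Gy but on no 7 Gy array all had a log2 difference below 0, with a median of −1.25, a direction that this choice of miRNAs favours. MiR-29a-3p, a regulator of collagen and other matrix genes, was above miR-709 on 4 of 4 arrays at 0 Gy and on 0 of 4 at 7 Gy. MiR-451a, which is processed by Ago2 without Dicer in red cell precursors, was above it on 4 arrays at 0 Gy and on 1 at 7 Gy. Others that had stood above it had higher scaled signals at 7 Gy, with log2 differences of 0.87 for miR-3473b, 1.64 for miR-5126, 1.21 for miR-5100, 1.68 for miR-8110, 1.83 for miR-3960 and 0.65 for miR-7047-5p, none of which passed the test and of which miR-3473b, miR-5100 and miR-7047-5p were below 0 without scaling. The guanine-rich miR-5126 stayed above miR-709 on 3 of 4 arrays at 7 Gy.

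The array reads miR-709 with 2 probes, A_54_P2098 and A_54_P2099, each on 15 spots, so that 240 spots were read over the 8 arrays. All 240 were well above background and 0 were saturated, and 8 were marked as outliers by the software. Spots of 1 probe on 1 array varied by 1.94 to 6.09% (coefficient of variation, median 3.45%), and the mean spot signal was 40.3 to 1294 times the local background. The spread between spots was therefore small beside the spread between arrays, and replicate spots measure the array and not the serum.

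The probe A_54_P2099 was the brighter one on every array. Its mean spot signal before scaling was 10642, 10591, 5156 and 4837 at 0 Gy against 3082, 22775, 5235 and 27166 at 7 Gy. For A_54_P2098 the signals were 2446, 2317, 1242 and 1344 at 0 Gy against 807, 5441, 1224 and 9314 at 7 Gy. Scaled in the same way, the probes differed between doses by 1.51 (A_54_P2099) and 1.65 (A_54_P2098) on the log2 scale, without overlap of the groups for either probe.

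The ratio of the probes within an array cancels a level they share, but it is made from the spot signals that chose miR-709 and is given without a test. It was 4.35, 4.57, 4.15 and 3.60 at 0 Gy against 3.82, 4.19, 4.28 and 2.92 at 7 Gy. On the log2 scale it was 2.05 ± 0.148 and 1.91 ± 0.254 (SD, n = 4 each), a difference of −0.14 with a standard error of 0.15, and the groups overlapped. The lowest ratio belonged to 7 Gy replicate 4, which had the highest miR-709 signal, and without this array the difference was −0.022.

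**Figure D2:**
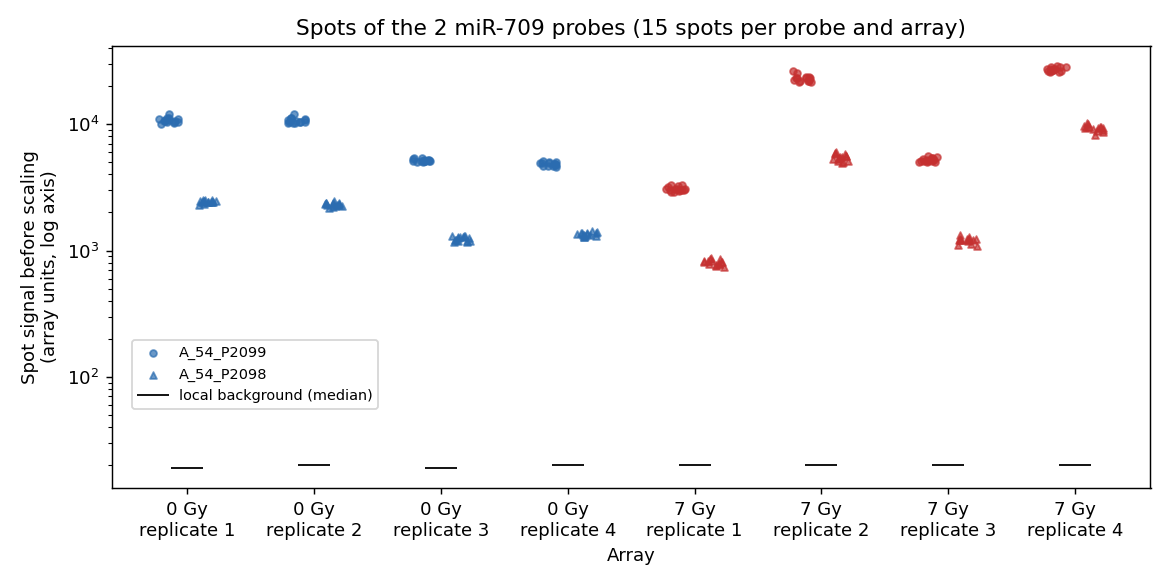
Signal before scaling of each spot of the miR-709 probes on the 8 arrays, on a log axis in array units, with circles for A_54_P2099, triangles for A_54_P2098 and bars for the local background. The spots of a probe lie close together on each array, and the 7 Gy arrays (red) differ more among themselves than the 0 Gy arrays (blue).

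Across the whole table, few miRNAs passed the test. Of 208 miRNAs that were detected on at least 3 arrays and not at the floor of 100 on all 8, 4 were higher at 7 Gy (1.92%) and 4 were lower (1.92%), 3.85% in either direction, at an adjusted p under 0.05 (limma, Benjamini-Hochberg). These counts rest on single arrays, since 0 rose and 0 fell without 0 Gy replicate 2 (23 and 12 at an unadjusted p under 0.05), and 48 rose and 11 fell without 7 Gy replicate 2. MiR-709 is counted among the 4, and since its difference chose it nothing is read from that. Counted from the largest rise, its difference was the 14th of the 208, and some falls were larger in size. Its mean log2 signal was the 9th highest. The median log2 difference of all 208 was 0.17, so that miR-709 stood 1.38 above it. This standing depended on the floor. With a floor of 10, and also without a floor, the median of the 208 was 0.58. MiR-709 then stood 0.98 above it and was at position 43 by its difference. At 7 Gy all arrays were above all 0 Gy arrays for 14 miRNAs (6.73%), miR-709 among them, and all were below for 11 (5.29%).

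The other 3 miRNAs that rose had lower array signals than miR-709. MiR-5128 was 379, 607, 945 and 676 scaled units at 0 Gy against 2404, 1183, 2670 and 2805 at 7 Gy, with a log2 difference of 1.80 (SE 0.37, adjusted p = 0.0474, limma). MiR-3470a was 110, 140, 125 and 145 at 0 Gy against 298, 314, 249 and 423 at 7 Gy, with a log2 difference of 1.29 (SE 0.18, adjusted p = 0.0202, limma). MiR-3473e was under the floor of 100 on all 0 Gy arrays, at 35.7 to 87.8, and was 248, 143, 279 and 282 at 7 Gy. Its log2 difference of 1.20 (SE 0.23, adjusted p = 0.0474, limma) was taken against the floor. None of the 3 had overlapping groups after scaling, but the groups of all 3 overlapped before it. Over the other settings their log2 differences ran from 0.53 to 3.55, from 0.22 to 2.37 and from 0.74 to 2.05 in the same order.

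The 4 miRNAs that fell were miR-25-3p of the miR-106b-25 cluster in Mcm7, miR-140-3p, known from cartilage, let-7b-5p, a regulator of growth genes, and miR-130b-3p. Their log2 differences were −3.96, −2.71, −2.50 and −1.35. MiR-25-3p, let-7b-5p and miR-130b-3p were at the floor on 3, 3 and 4 of the 7 Gy arrays, so that the size of these differences depends on the floor. Over the other settings they ran from −5.03 to −1.50, from −3.75 to −0.95, from −6.02 to −1.45 and from −4.61 to −0.55 in the same order. Without 7 Gy replicates 1, 3 and 4, which had labelling signals outside the range, miR-25-3p was −1.50 and miR-140-3p −1.48, and with scaling to the labelling spike-ins miR-140-3p was −0.95 and miR-130b-3p −0.55.

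The miRNAs nearest to miR-709 in signal are given as values beside it. The 3 next above it in mean log2 signal were miR-3960, miR-3473b and miR-5100, and the 3 next below were miR-7047-5p, miR-451a and miR-30a-5p. Of these, 0 of 6 were called, where 3.85% of all tested miRNAs were, so that 0 of 6 says nothing about miRNAs of like signal. MiR-3473b came closest to a call. It was 2231, 1987, 2675 and 2076 scaled units at 0 Gy against 4116, 2890, 3779 and 6033 at 7 Gy. Its groups did not overlap, and its log2 difference was 0.87 (SE 0.23, adjusted p = 0.0768, limma). MiR-3960 had a larger difference of 1.83 with a wider error (SE 0.71, adjusted p = 0.146, limma), since its 7 Gy values ran from 1869 to 14461. MiR-30a-5p of the miR-30 family had a difference of −0.015 (SE 0.35).

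MiR-709 also stands on the study's own list of miRNAs that increased, which was chosen on these samples and is no independent evidence of direction. The other 11 miRNAs of that list were detected on all 8 arrays, and all 11 had a log2 difference above 0, from 0.87 to 2.27 with a median of 1.40. Of these 11, 2 rose by the limma test (miR-5128 and miR-3470a), where 1.92% of all tested miRNAs did. All 7 Gy arrays were above all 0 Gy arrays for 5 of the 11, where this held for 6.73% of all tested miRNAs. Since the list was chosen on these samples, nothing is read from these counts. The brightest of the 11, miR-5126, miR-8110 and miR-3473b, did not pass. The log2 differences of miR-5126 and miR-8110 were 1.64 (SE 0.62) and 1.68 (SE 0.63), both with an adjusted p of 0.135 (limma).

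The miRNAs whose pattern over the 8 arrays was most like that of miR-709 were found by Pearson's r on the scaled log2 signals. Of the 207 other tested miRNAs, 131 had an r above 0, the median was 0.51, 21 were above 0.9 and 4 were below −0.9. The median is an r that miR-139-3p and miR-8100 share, among others. Both were at the floor on all 4 arrays at 0 Gy and on 3 of 4 at 7 Gy, so that such an r rests on 1 array. The 8 arrays share 1 slide, their scaling and the difference between doses, so r is a description of these arrays. The 5 highest values belonged to miR-5107-5p (0.979), miR-3473e (0.954), miR-1892 (0.953), miR-3072-5p (0.951) and miR-6965-5p (0.950). As deviations from the means of the groups, which leave out the difference between doses, their r values were 0.916, 0.779, 0.921, 0.826 and 0.862.

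The array signals of all 5 were well under that of miR-709, and the 0 Gy signals of 4 of them, all but miR-1892, lay under the floor on at least 1 array. MiR-5107-5p was 70.4 to 92.1 at 0 Gy, under the floor on all 4 arrays, and 277, 161, 372 and 598 at 7 Gy. MiR-1892 was 114, 168, 262 and 228 at 0 Gy against 426, 239, 740 and 939 at 7 Gy, so that its groups overlapped at replicate 2 of 7 Gy. MiR-3072-5p was 82.9, 101, 157 and 161 at 0 Gy against 407, 182, 467 and 635 at 7 Gy. Like miR-709, each of these was lowest at 7 Gy on replicate 2 and highest on replicate 4. Because likeness to miR-709 carries its difference between doses with it, nothing is read from the count that 1 of the 5 was called (miR-3473e) and 3 of 5 had no overlap. The log2 differences of the 5 were 1.04 to 1.66.

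The 5 lowest r values, chosen after the values were seen, belonged to miR-92a-3p of the miR-17-92 cluster (−0.951), miR-29a-3p (−0.946), miR-25-3p (−0.923), miR-140-3p (−0.913) and miR-130b-3p (−0.885). MiR-92a-3p was 2918, 2305, 1833 and 1243 scaled units at 0 Gy against 240, 820, 249 and 87.2 at 7 Gy. MiR-29a-3p was 4637, 3148, 2978 and 3424 at 0 Gy against 1190, 2558, 288 and 517 at 7 Gy. Both were highest at 7 Gy on replicate 2, the array on which miR-709 was lowest.

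**Figure D3:**
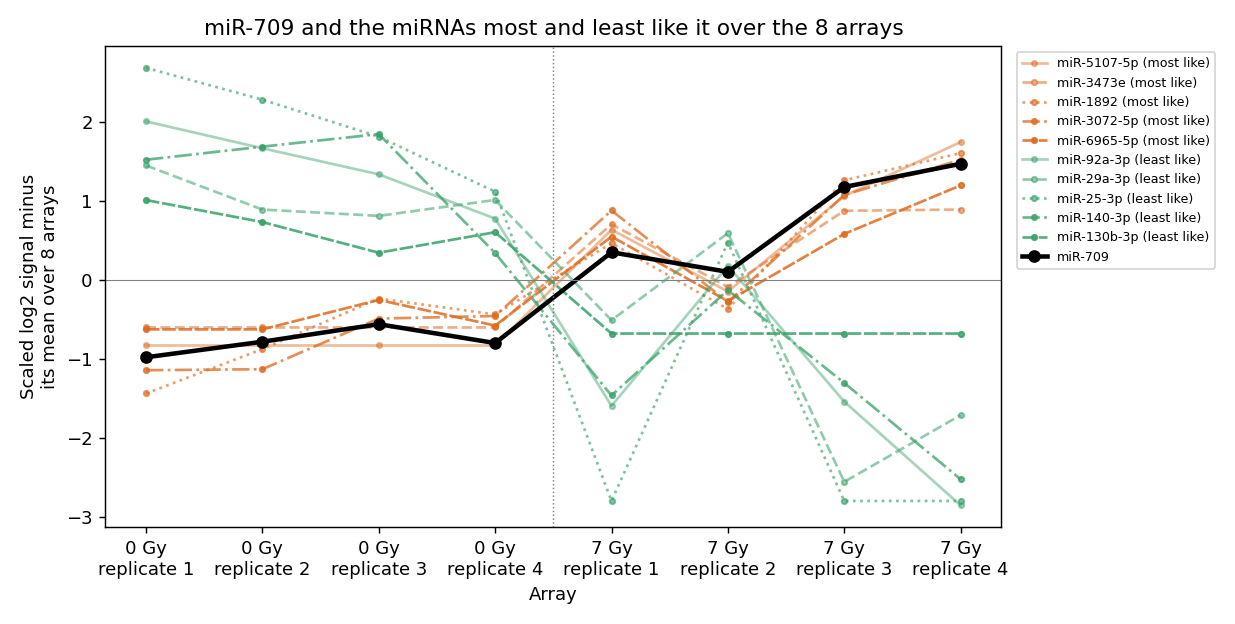
Scaled log2 signal of miR-709 (black), of the 5 miRNAs most like it (orange) and of the 5 least like it (green) on each array, each minus its own mean over the 8 arrays. At 7 Gy replicate 2 lies lowest for miR-709 and the orange lines, and the values at the floor of 100 draw flat stretches.

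The miRNAs of like pattern were rich in guanine. The 4 with a sequence held 47.6 to 54.5% guanine and the 5 least like held 18.2 to 31.8%, and the median of the 177 tested miRNAs with a sequence was 36.8%. Over these 177 the guanine share and r with miR-709 had a Spearman's rho of 0.66 (Pearson's r 0.67). With r from deviations within the groups, rho was 0.65, and between guanine share and mean log2 signal it was 0.047. These are descriptions across miRNAs, which share arrays, scaling and families and are no independent replicates.

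With the 177 miRNAs split into 4 bins by guanine share, likeness to miR-709 rose from bin to bin. In the lowest bin 10 of 45 miRNAs had an r above 0 with miR-709 and the median r was −0.42. In the second bin 19 of 44 did, with a median of −0.29. In the third bin 38 of 44 did, with a median of 0.67, and in the highest 43 of 44, with a median of 0.79. Some of these r values rest on 1 array above the floor. The median of the lowest bin is the r that miR-148a-3p and miR-29b-3p share, among others. Both were at the floor on 3 of 4 arrays at 0 Gy and on all 4 at 7 Gy. Such miRNAs are also among the 177 behind the rho values above. The part of guanine share in the difference of miR-709 between doses was not tested.

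**Figure D4:**
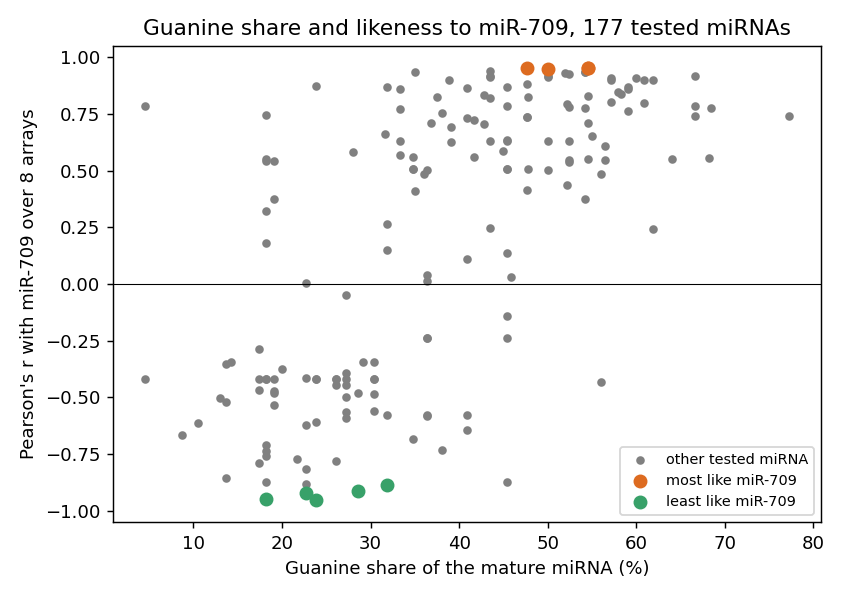
Guanine share of the mature sequence in percent against Pearson's r with miR-709 over the 8 arrays for the 177 tested miRNAs with a sequence (grey), with those most like (orange) and least like (green) miR-709 in colour. MiRNAs over 50% guanine nearly all have an r above 0, and those under 30% have r values of both signs, most of them below 0.

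The miR-15a/16-1 precursor is the known nuclear target of miR-709, and its products were read for that reason. MiR-16-5p has 2 loci in the table, so that its signal is not that of this precursor alone. The 5p arms share the seed AGCAGCA.
miR-15a-5p: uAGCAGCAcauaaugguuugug
miR-16-5p: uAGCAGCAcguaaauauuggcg
MiR-16-5p was 6893 and 4356 scaled units on 0 Gy replicates 1 and 2, under the floor on replicates 3 and 4, and at 7 Gy it was 810 on replicate 2 and not detected on the others. MiR-15a-5p was 1246, 691, 110 and, under the floor, 39.3 at 0 Gy, and at 7 Gy it was 228 on replicate 2 and not detected on the others. Their log2 differences of −2.13 (SE 1.68, adjusted p = 0.434, limma) and −1.34 (SE 0.89, adjusted p = 0.338, limma) did not pass the test. The 3p arms gave no comparison, since miR-15a-3p was detected on no array and miR-16-1-3p on 1. MiR-16-5p is also a red cell miRNA, whose group sum is given above, and the part of red cells in these values was not tested.

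MiRNA genes near Mir709, a list chosen after the data were seen, are given as values. Within 250 kb the table lists Mir8111, Mir1199, the Mir181c and Mir181d pair and the Mir23a, Mir27a and Mir24-2 cluster with Mir3074-2. Of their 15 mature miRNAs on the array, 10 were detected on any array, 5 were tested and 0 were called, where 3.85% of all tested miRNAs were, so that 0 of 5 says nothing about the neighbourhood. MiR-24-3p was 1413, 120, 261 and 80.4 scaled units at 0 Gy against 1232, 1006, 439 and 437 at 7 Gy, with a log2 difference of 1.44 (SE 0.88). The other 4, miR-23a-3p, miR-27a-3p, miR-181c-5p and miR-181d-5p, had differences of −0.31, −0.80, −0.21 and −0.017.

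The size of the difference of miR-709, which is a description of the values that chose it, depended on the scaling. Of 30 other settings, 6 (the floors, the filters and the blocks) leave its value at 1.56 by construction, and in the other 24 it ran from 0.30 to 3.32. Without scaling it was 0.30 with an SE of 0.89, and with the hybridization spike-ins 1.15 with an SE of 0.84, so that its sign is not settled under either. With the labelling spike-ins it was 3.32 (SE 1.17). The median of the tested miRNAs shifted with the scaling as well, and was −0.16 without scaling and 1.29 with the labelling spike-ins. MiR-709 lay 0.46 above that median without scaling and 2.02 above it with the labelling spike-ins. Within slide row 1, which holds replicates 1 and 2 of both doses, the difference was 1.11, and within row 2 it was 2.01.

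**Figure D5:**
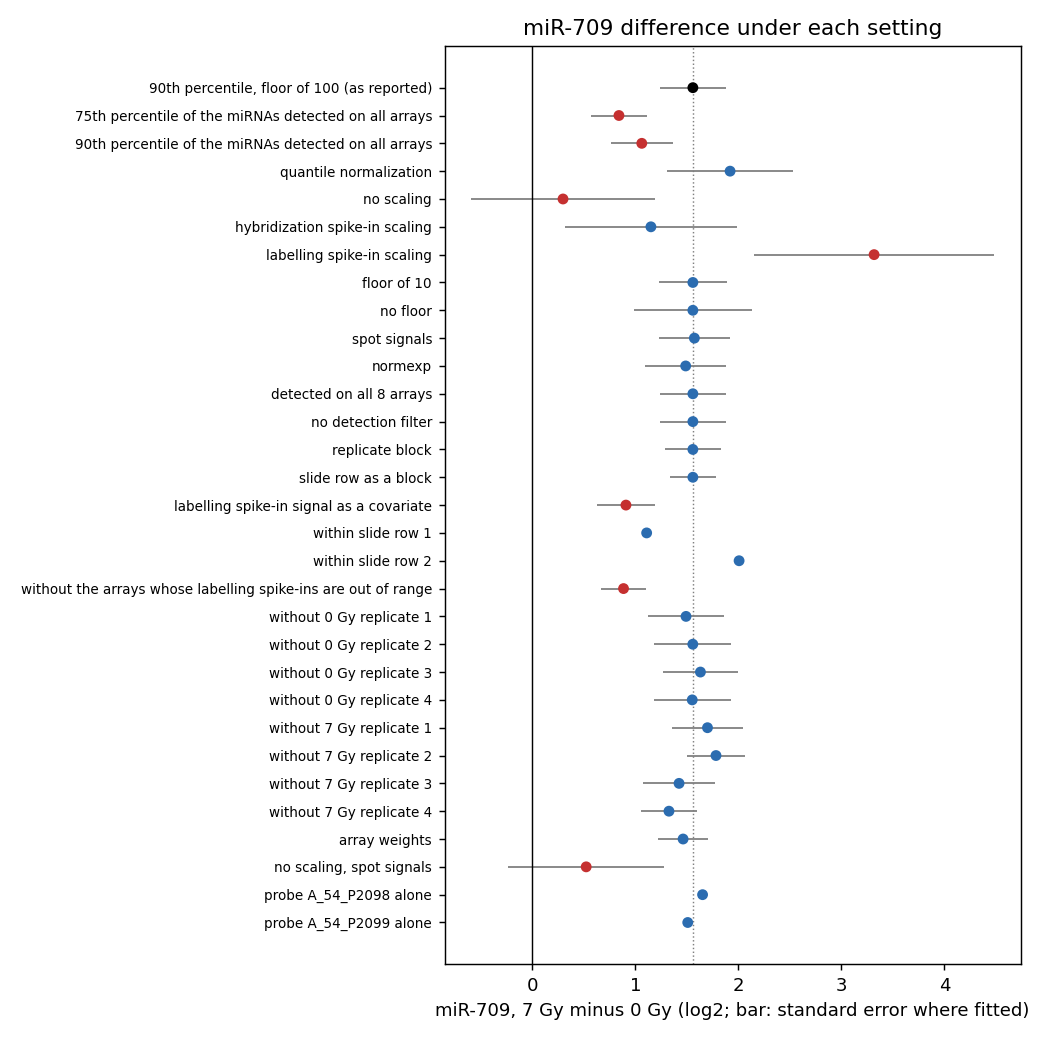
Log2 difference of miR-709 between 7 Gy and 0 Gy (horizontal axis) under each setting, with the standard error as a bar where a fit gave one. The reported setting (black, dotted line) is 1.56, and red points moved from it by more than the pooled SD of 0.478 between arrays. The bars of the unscaled total signals and of the unscaled spot signals reach across 0.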

How the data were processed

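The authors deposited intensity values from Agilent Feature Extraction (11.5 per the labels, while the paper's methods name another version), background-subtracted, with the probes of a miRNA summed, 0.1 entered where it was not detected and no normalization between arrays. From there each array was scaled to the common 90th percentile of its 1881 mouse miRNAs, then log2 was taken with a floor of 100, after the study's methods. A miRNA was tested if it was detected on at least 3 of 8 arrays (633) and was not at the floor on all (425 left out), which gave 208. The doses were compared by limma 3.58.1 under R 4.3.3 (lmFit, eBayes, no covariate), and p-values were adjusted after Benjamini-Hochberg. A planned permutation test of the probe ratio is not reported, since the ratio is made from the spot signals that chose miR-709. MiRNAs were named by likeness to miR-709, nearness in mean signal, the limma calls, the miR-15a/16-1 products and the study's list. MiR-709 and all lists were chosen with earlier results of these data known. The number of arrays limits the precision. Alternatives changed the scaling, floor, signal, filter, block and arrays.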

Additional observations from a re-analysis of the deposited data

How the results depend on the processing

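The log2 difference of miR-709 stayed at 1.56 by construction in 6 of 30 other settings and varied in 24. It was 0.84 and 1.06 with the 75th and 90th percentile taken over miRNAs that every array detected, and 0.30 without scaling (SE 0.89). With the labelling spike-ins it was 3.32, with their signal as a covariate 0.91 and without the arrays out of range 0.88. Without scaling on spot signals it was 0.52 (SE 0.76), a setting chosen after seeing the data, as were the fits of single probes. Leaving out 1 replicate gave 1.32 to 1.78, and the cause of these shifts was not tested. The median rank of 12 over 8 arrays became 9 to 15 without 1 array, since it then leans to 1 dose. The probe ratio kept its sign throughout, from −0.21 to −0.022 without 1 replicate.

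The numbers of miRNAs called by limma depended on most settings. The main 4 higher and 4 lower became 7 and 11 with the 75th percentile, 6 and 1 with the 90th percentile so taken, 9 and 19 with a floor of 10, 2 and 0 without a floor (66 and 84 unadjusted), 6 and 10 on spot signals, 6 and 12 with normexp, 18 and 8 with slide row as a block, 61 and 14 with array weights, and 0 and 4 with an intensity trend and robust prior (37 and 24 unadjusted). They were 0 and 0 without scaling (1 and 17 at an unadjusted p under 0.05), with the hybridization spike-ins (10 and 11), the labelling spike-ins (26 and 3), the labelling covariate (12 and 21), without the arrays out of range (9 and 6) and on unscaled spot signals (3 and 26). By the reported fit 46 and 16 had an unadjusted p under 0.05. Without 1 replicate there were 0 to 48 higher and 0 to 11 lower: 48 and 11 without 7 Gy replicate 2, 0 and 0 without 0 Gy replicate 2 (23 and 12 unadjusted), 0 and 1 without 0 Gy replicate 1 (24 and 10), and 1 or 2 higher without any other array. The methods' t-test gave 34 and 14 at their unadjusted threshold and 1 and 1 after Benjamini-Hochberg. Same-numbered samples deviated together in 3 of 4 pairs only (r of −0.34, 0.43, 0.55 and 0.42). The labels do not say whether the numbers pair the samples, and these r values cannot show it. A replicate block gave 0 and 0 calls (47 and 18 unadjusted) and, by construction, the same 1.56 for miR-709.

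Of the 5 miRNAs most like miR-709, 3 stayed among the 5 by Spearman's rho, 1 by deviations from the group means, added after seeing the data, and 1 to 5 without 1 replicate. Some signs turned. MiR-3473b was −0.40 without scaling and −0.20 on unscaled spot signals, and miR-5100 was −0.055 without scaling. MiR-7047-5p was −0.069 with the 75th percentile, −0.61 without scaling, −0.44 on unscaled spot signals, −1.38 with the labelling covariate and −1.61 without the arrays out of range. That last setting leaves replicate 2 as the only 7 Gy array. In it miR-451a was 0.068, against −5.34 by the reported fit, and miR-16-5p was 0.43. With the covariate miR-16-5p was 0.87 and miR-15a-5p 0.081. MiR-30a-5p was 1.74 with the labelling spike-ins, 0.11 with normexp, 0.15 with array weights and −0.23 to 0.17 without 1 replicate, above 0 in 4 of 8 cases. The comparison of sequence classes set by miR-709 itself was not run.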
